A study of Caenorhabditis elegans with 2 samples.

Results

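A set of 76 genes named for proteins of the cytosolic ribosome of Caenorhabditis elegans was examined for binding by the transcription factor SOX-4. They are the protein-coding genes of the Ensembl models whose symbol is rpl- (large subunit) or rps- (small subunit) followed by a number, with or without a decimal, out of 19973 protein-coding genes on the 6 chromosomes. There were 45 genes of the large subunit and 31 of the small subunit. The choice used symbols only and no measured value. Another 2 genes with a letter in the symbol, rpl-7A and rpl-36.A, fall outside that choice although RefSeq names their products eL8 and eL42 of the large subunit. So do rla-0, rla-1, rla-2 and rack-1, whose products RefSeq also names as ribosomal subunit proteins. The RefSeq product names fit the label for nearly all 76, with 3 that give a less specific name: rps-10, rps-22 and rps-30. The product of rpl-42 is given as a NAM-associated domain-containing protein, which names no ribosomal protein, so that gene is in the set by its symbol only. Besides these, rpl-24.2 is annotated as a putative ribosome biogenesis protein, RLP24, which is a factor that helps to build the large subunit rather than a part of the finished ribosome.

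Ribosomal proteins assemble with ribosomal RNA in the nucleolus into a large subunit, which joins amino acids, and a small subunit, which reads the messenger RNA. Cells need the proteins in matched amounts, and their genes are scattered over the genome and are among the most highly transcribed in growing tissue and early development. In C. elegans many such genes are trans-spliced: a short spliced leader replaces the first stretch of the transcript, called the outron, so the annotated 5′ end of the gene can lie downstream of the place where transcription starts. SOX proteins are transcription factors with a DNA-binding HMG domain, known for their part in cell fate decisions.

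The data are anti-GFP chromatin immunoprecipitation with sequencing (ChIP-seq) from 1 group of 2 biological replicates. The animals were whole late embryos of mixed sex, of strain OP517, with the genotype unc-119(tm4063) III; wgIs517, taken 4 h after synchronization by bleaching. The wgIs517 insertion produces SOX-4 carrying a C-terminal GFP-FLAG tag, and the labels name no promoter for it. All cells of the embryo were pooled, so a strong region in few cells cannot be told apart from a weak one in many. No list from animals without the tagged protein was analysed here, and every statement below describes these 2 libraries.

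For each gene the strongest region was taken whose summit lay within 1 kb of the annotated 5′ end, in either direction. This was done in 3 lists of 30000 regions each: 1 called on the pooled libraries and 1 for each replicate. A region is called a peak here when it is also in the authors' thresholded list, which holds 668 regions. These 668 were the strongest of the pooled list, with signal values of at least 129.9. A peak was thus chosen on both replicates pooled. Its strength, overlap and summit agreement in each replicate are therefore partly built in. The signal value was taken to be the peak caller's strength of a region, measured against a control. The caller and this definition are not stated in the sources used here. The value can be compared within a list but not between lists. The lists hold no read counts, so depth and the counting error of a signal value are unknown.

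To show the DNA under the peaks, the 201 bases centred on the summit are given for 8 of the 15 ribosomal protein genes that had a peak. These 8 are not the 8 strongest, and no rule for their choice is given. The sequences are from the RefSeq copy of the ce11 assembly, read 5′ to 3′ on the strand of the ribosomal protein gene. The gene thus starts to the right of each line in these 8. Capitals mark 3 short words discussed further on, ACCGTA and ACACTC and also GGCCTAA. Their reverse complements, TACGGT for the first and GAGTGT for the second and TTAGGCC for the last, are in capitals too.
rpl-3 (chrIII:3867468-3867668, plus strand): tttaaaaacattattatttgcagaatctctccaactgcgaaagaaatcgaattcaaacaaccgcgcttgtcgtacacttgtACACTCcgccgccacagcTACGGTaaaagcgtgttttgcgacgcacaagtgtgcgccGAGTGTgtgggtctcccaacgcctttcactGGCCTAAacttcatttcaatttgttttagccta
rpl-15 (chrIV:654826-655026, minus strand): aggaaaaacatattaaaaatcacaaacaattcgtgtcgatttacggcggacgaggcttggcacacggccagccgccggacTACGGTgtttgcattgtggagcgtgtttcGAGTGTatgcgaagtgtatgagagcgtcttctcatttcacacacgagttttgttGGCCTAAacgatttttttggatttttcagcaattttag
rpl-35 (chrIII:7854620-7854820, plus strand): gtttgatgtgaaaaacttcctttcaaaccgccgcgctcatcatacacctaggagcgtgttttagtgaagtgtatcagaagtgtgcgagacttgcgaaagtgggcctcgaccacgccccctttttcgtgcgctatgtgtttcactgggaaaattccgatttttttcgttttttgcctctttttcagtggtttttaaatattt
rps-28 (chrIV:1659149-1659349, plus strand): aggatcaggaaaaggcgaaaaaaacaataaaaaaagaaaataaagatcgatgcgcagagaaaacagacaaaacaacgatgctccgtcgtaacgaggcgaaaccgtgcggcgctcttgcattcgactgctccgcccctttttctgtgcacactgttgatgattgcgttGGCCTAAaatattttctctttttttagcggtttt
rpl-20 (chrIV:4749942-4750142, minus strand): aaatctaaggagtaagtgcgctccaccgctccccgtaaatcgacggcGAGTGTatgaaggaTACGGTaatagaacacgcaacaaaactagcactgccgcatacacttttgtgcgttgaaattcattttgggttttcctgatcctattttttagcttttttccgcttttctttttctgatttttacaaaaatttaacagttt
rps-1 (chrIII:4475595-4475795, plus strand): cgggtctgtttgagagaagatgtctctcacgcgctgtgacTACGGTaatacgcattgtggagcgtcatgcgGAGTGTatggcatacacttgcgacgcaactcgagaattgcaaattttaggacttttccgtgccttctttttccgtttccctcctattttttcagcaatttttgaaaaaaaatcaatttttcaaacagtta
rpl-11.2 (chrX:2242904-2243104, minus strand): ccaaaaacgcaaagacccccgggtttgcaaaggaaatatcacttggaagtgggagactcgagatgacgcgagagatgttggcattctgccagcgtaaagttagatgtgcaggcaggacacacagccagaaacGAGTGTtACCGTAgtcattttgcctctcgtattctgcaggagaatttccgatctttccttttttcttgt
rps-11 (chrIV:11601978-11602178, plus strand): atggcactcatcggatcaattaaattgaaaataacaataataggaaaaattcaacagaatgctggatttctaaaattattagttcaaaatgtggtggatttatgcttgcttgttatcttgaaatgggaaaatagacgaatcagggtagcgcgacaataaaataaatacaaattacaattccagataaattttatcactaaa

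Regions were found at most of the ribosomal protein genes, on both subunits. In the pooled list 67 of 76 genes (88.2%) had a region within 1 kb, against 44.2% of all protein-coding genes. Replicate 1 gave 65 of 76 genes, against 46% of all protein-coding genes, and replicate 2 gave 69 of 76, against 45.2%. A thresholded peak was the strongest region of 15 of 76 genes (19.7%, 95% Wilson interval 12.3 to 30.04, for counting error over genes only), against 2.35% of all protein-coding genes. Among genes that had any pooled region, the shares were 15 of 67 (22.4%) and 5.32% of all. These are descriptions of 2 libraries, and genes are not independent replicates.

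The strength of the regions showed the same order. The median signal of the 67 genes was 76.6 in the pooled list (range 37.0 to 535.5, quartiles 61.3 and 121.6), against 56.7 for all protein-coding genes with a region. In replicate 1 the ribosomal protein genes had a median of 48.1, against 35.4 for all genes. In replicate 2 the medians were 42.8 for ribosomal protein genes and 28.3 for all genes. By rank, the median ribosomal protein gene stood at place 4102 of 30000 in the pooled list (13.7% from the top), 4052 in replicate 1 and 2822 in replicate 2, against 11294, 11921 and 11560 for all protein-coding genes with a region. No ribosomal protein gene had more than 1 thresholded peak within 1 kb.

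The subunits did not separate. Of the large subunit genes 40 of 45 had a region, 8 had a peak (17.8%, 9.29 to 31.3) and the median signal was 77.4. Of the small subunit genes 27 of 31 had a region, 7 had a peak (22.6%, 11.4 to 39.8) and the median was 74.9. The order of the medians was not kept in the replicates, where large subunit genes had 44.1 in replicate 1 and 41.9 in replicate 2, and small subunit genes had 54.4 in replicate 1 and 44.1 in replicate 2. The intervals of the 2 shares overlap over most of their length, which is no test, as genes are not independent replicates. The strongest large subunit gene, at 535.5, stood above the strongest small subunit gene, at 280.2.

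**Figure D1:**
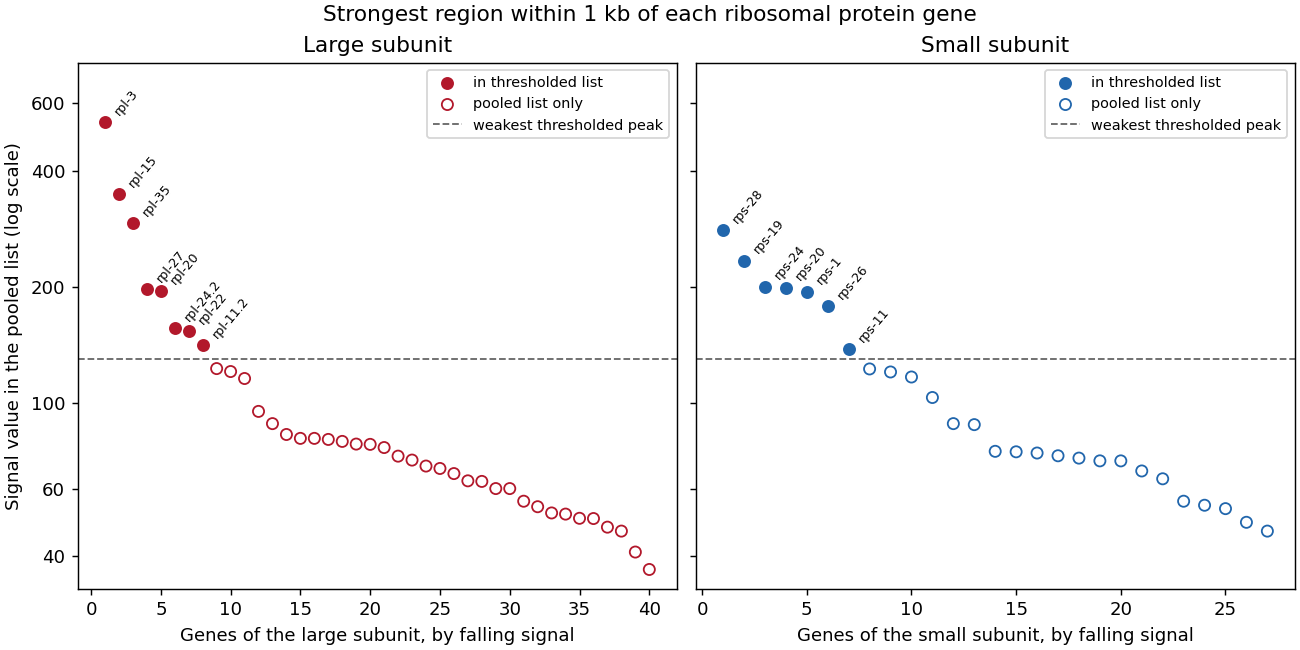
Signal value in the pooled list (log scale) of the strongest region within 1 kb, 1 point for each gene with a region, sorted by falling signal within the large subunit (left, 40 genes) and the small subunit (right, 27 genes). Filled points are thresholded peaks and the dashed line is the weakest thresholded peak of the genome at 129.9. A few genes of each subunit, led by rpl-3 and rps-28, rise well above a long run of genes between 37.0 and 122.8.

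The strongest peak lay at rpl-3, which encodes uL3, a core protein of the large subunit that reaches toward the peptidyl transferase centre. Its signal was 535.5 in the pooled list, 285.9 in replicate 1 and 253.2 in replicate 2, which are ranks 29, 31 and 22 of 30000. The summit lay 286 bp upstream of the 5′ end, and no other protein-coding 5′ end was within 1 kb of it. The next, rpl-15, encodes eL15 of the large subunit and had signals of 347.1 pooled, 190.5 in replicate 1 and 157.8 in replicate 2 (ranks 101, 102 and 99). Both genes held nearly the same place in all 3 lists.

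Also high in every list were rpl-35, which encodes uL29, a protein near the exit of the peptide tunnel, and rps-28, which encodes eS28 of the small subunit. The rpl-35 peak had 293.1 pooled, 151.0 in replicate 1 and 137.3 in replicate 2, with a summit 414 bp upstream. The rps-28 peak had 280.2 pooled, 162.7 in replicate 1 and 122.5 in replicate 2, with a summit 442 bp upstream. These 4 strongest peaks were within the first 165 regions of each of the 3 lists.

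In the middle of the range stood 6 genes with pooled signals between 194.4 and 233.8: rps-19, rps-24, rps-20, rpl-27, rpl-20 and rps-1. The first of them, rps-19, encodes eS19 of the small subunit head, whose human counterpart is mutated in Diamond-Blackfan anaemia, and had 233.8 pooled, 101.3 in replicate 1 and 131.9 in replicate 2. Its rank was 339 in replicate 1 and 146 in replicate 2. For rps-20, which encodes uS10, the signals were 199.2 pooled, 100.04 in replicate 1 and 96.4 in replicate 2. For rpl-20, which encodes eL20, they were 195.1, 114.6 and 80.6 in the same order of lists. For rps-1, which encodes eS1, they were 194.4, 115.3 and 70.1. All of these were among the 668 strongest regions of each replicate.

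Among these 6, rps-24 and rpl-27 need a remark on where their signal lies. The rps-24 peak (200.2 pooled, 104.9 in replicate 1 and 94.9 in replicate 2, summit 495 bp upstream) sat on repeated sequence: 113 of the 172 words of 30 bases in its 201-base window (65.7%) occurred elsewhere in the genome, up to 46 times. None of the other 14 peak windows held such a word. The treatment of reads with several matches is not stated in the sources used here. The rpl-27 peak (197.5 pooled, 105.6 in replicate 1 and 92.4 in replicate 2) had its summit 737 bp downstream of the rpl-27 5′ end and 41 bp upstream of egl-30, which encodes a G protein alpha subunit. It was the only 1 of the 15 peaks downstream of its ribosomal protein gene's 5′ end.

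The remaining 5 peaks were weaker, and 3 of them fell outside the 668 strongest regions of 1 replicate. The rps-26 peak (eS26, a small subunit protein at the messenger RNA exit) had 178.4 pooled, 119.4 in replicate 1 and 57.1 in replicate 2, which is rank 228 in replicate 1 and 955 in replicate 2. The rpl-24.2 peak had 156.5 pooled, 115.6 in replicate 1 (rank 247) and 42.9 in replicate 2 (rank 2789). The rpl-11.2 peak (uL5, which binds 5S ribosomal RNA) was outside them in replicate 1, with 141.2 pooled, 61.04 in replicate 1 (rank 1476) and 74.0 in replicate 2 (rank 451).

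The last 2 were among the 668 strongest regions in both replicates. The rpl-22 peak (eL22) had 153.2 pooled, 82.2 in replicate 1 and 70.3 in replicate 2, with rank 526 in replicate 1 and 508 in replicate 2. The rps-11 peak (uS17) had 138.0 pooled, 93.9 in replicate 1 (rank 392) and 68.3 in replicate 2 (rank 549), but its summit lay 564 bp upstream in replicate 1 and 348 bp upstream in replicate 2. That gap of 216 bp was the widest between replicates among the 15 peaks, and the median gap was 13 bp.

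Using each replicate alone gave a like count. In replicate 1 the strongest region of 15 ribosomal protein genes was among the first 668 of the list, against 2.28% of all protein-coding genes. In replicate 2 this held for 15 as well, against 2.34%. The genes with such a region in both replicates numbered 12 of 76, against 1.54% of all, and all 12 had a thresholded peak. At all 15 peak genes the pooled region was overlapped by the gene's strongest region in each replicate. For all 67 genes with a pooled region, this held in both replicates at 42. Weaker replicate regions were not looked at, so the others are not shown to lack an overlapping region. For this overlap the share over all protein-coding genes is not given here. The peaks were called on these same libraries pooled, so their agreement is partly built in. Across the 59 ribosomal protein genes with a region in both replicate lists the signals had a Spearman rho of 0.54, against 0.44 across 6245 protein-coding genes, each a description over genes that share the same libraries.

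**Figure D2:**
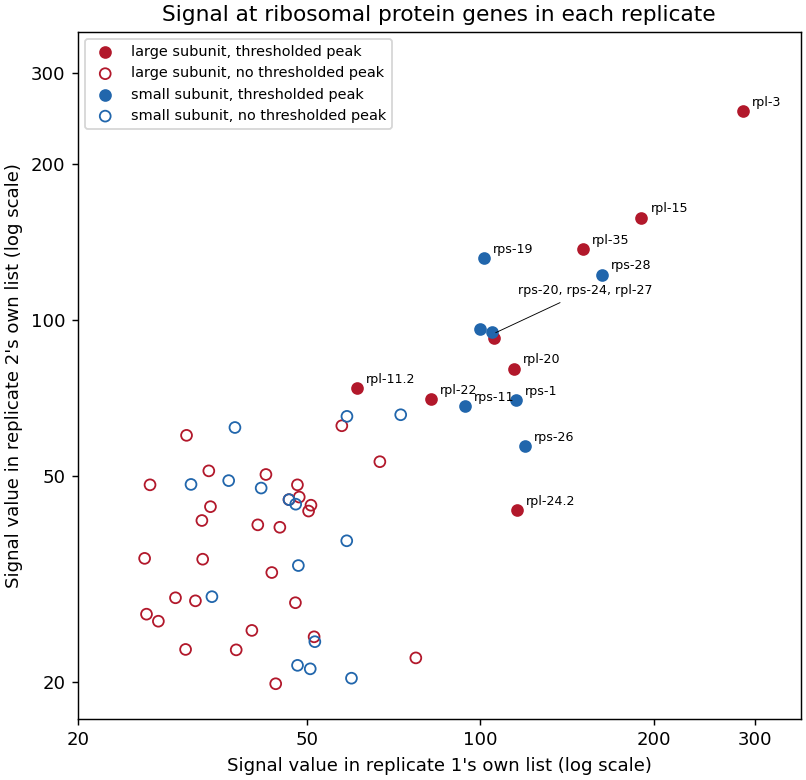
Signal value in replicate 1's list against that in replicate 2's list (both log scales) for the 59 ribosomal protein genes with a region within 1 kb in both. Filled points are genes with a thresholded peak, red the large subunit and blue the small subunit. The 4 strongest genes lie along 1 diagonal in both replicates, rpl-24.2 and rps-26 fall low in replicate 2, and the weaker genes form a cloud with little order.

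The remaining genes formed a graded series below the threshold, and 9 had nothing in the pooled list. Just inside the threshold were rpl-22 (153.2), rpl-11.2 (141.2) and rps-11 (138.0). Just outside it were rpl-14 (122.8, rank 773), which encodes eL14, rps-22 (122.5, rank 779) and rpl-12 (120.6, rank 819), which encodes uL11 of the GTPase stalk base. Weakest of those with a region were rpl-34 at 41.1 and rpl-19 at 37.0, near the lower end of the pooled list at 36.3. The 9 genes without a pooled region were rpl-10, rpl-21, rpl-31, rpl-37, rpl-42, rps-3, rps-13, rps-16 and rps-17. All but rpl-37 had a region in at least 1 replicate list. For the 43 weaker genes with a region in both replicates, the summits of the strongest regions differed by a median of 178 bp. They differed by over 100 bp at 31 of these genes, against 1 of the 15 peak genes. The strongest region was picked in each replicate separately, so a difference can lie between different regions. The same count over all protein-coding genes is not given here.

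Of the pairs of genes that are copies or close relatives by name, 3 had different regions, and these differed in pooled signal. For uL5 the copies had 141.2 at rpl-11.2 on the X chromosome and 50.2 at rpl-11.1. Of the pair named for uL23, rpl-25.1 had 79.5 and rpl-25.2 had 51.5. The biogenesis factor gene rpl-24.2 had 156.5, against 55.6 at rpl-24.1, which encodes the ribosomal protein eL24. The adjacent copies rpl-41.1 and rpl-41.2 were assigned the same region, at 80.9, with its summit 254 bp upstream of rpl-41.2. The 3 pairs with different regions were not compared by a test.

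The summits lay upstream of the genes at a distance, rather than at the annotated 5′ ends. Of the 67 regions by gene, 55 were upstream (82.1%) and 5 were within 100 bp of the 5′ end (7.46%). For all protein-coding genes with a region the shares were 56.9% upstream and 14.3% within 100 bp. The median position was 284 bp upstream for ribosomal protein genes and 90 bp upstream for all genes with a region. Of the 15 peak genes, 14 had the summit upstream, between 146 and 563 bp from the 5′ end, and 0 had it within 100 bp. Most peaks of other genes also lay upstream: 84.1% of the 454 other protein-coding genes with a thresholded peak had the summit upstream, and 13.2% had it within 100 bp. The initiation factor genes with a region were alike, with 88.2% upstream and a median of 251 bp upstream. The median of the 15 ribosomal protein peaks was 306 bp upstream, against 212 bp upstream for the 454 other genes with a thresholded peak. A band of 150 to 600 bp upstream, picked after the positions were seen, held 13 of the 15 and 64.2% of the 67, against 49.1% of the other genes with a thresholded peak and 28.4% of all genes with a region.

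**Figure D3:**
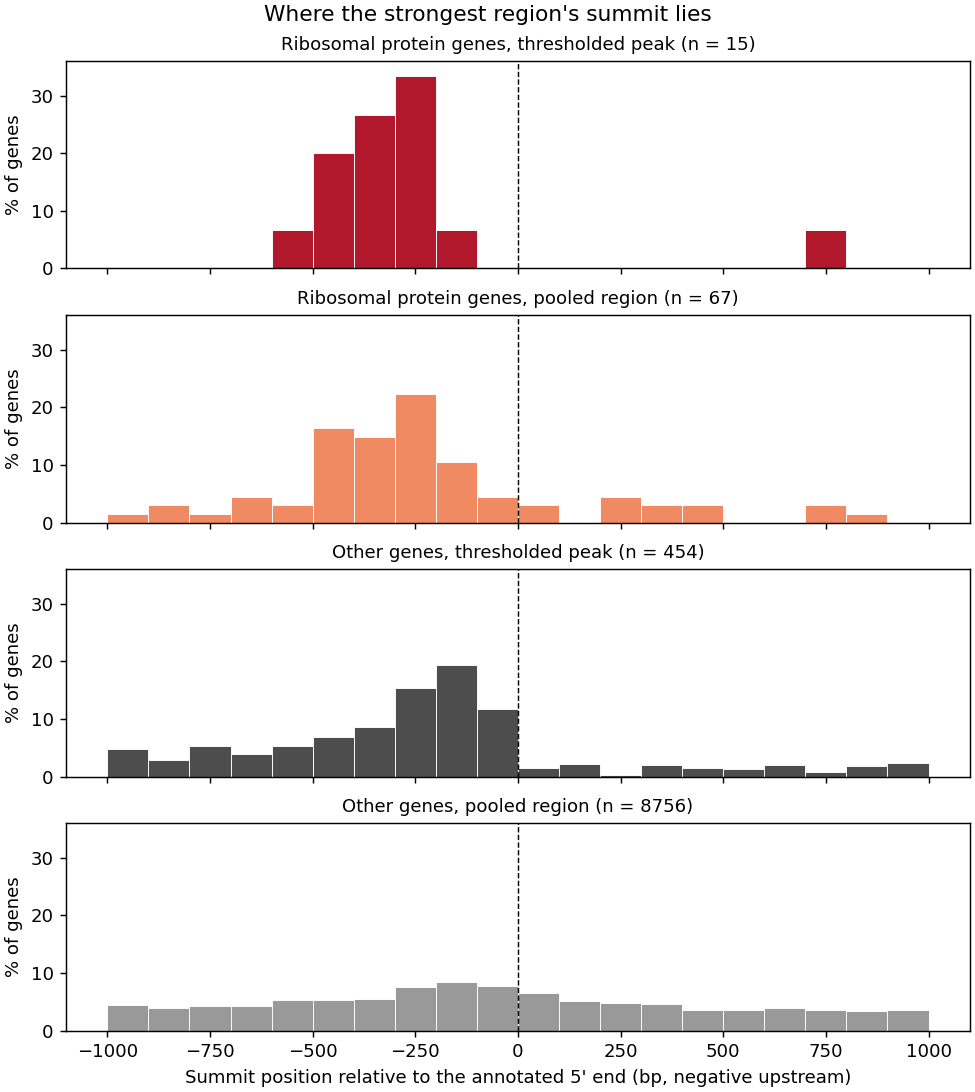
Share of genes (%) whose strongest region has its summit in each 100-bp bin around the annotated 5′ end (0, dashed line, with negative values upstream). From the top: 15 ribosomal protein genes with a thresholded peak, 67 with any pooled region, 454 other genes with a thresholded peak and 8756 other genes with a pooled region. Both ribosomal protein panels are highest 200 to 300 bp upstream and low at the 5′ end, while other peaks are highest 100 to 200 bp upstream and the other pooled regions are spread over the whole window.

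The annotated 5′ ends of these genes often follow the bases AG, which end a splice acceptor. This held for 65 of 76 ribosomal protein genes (85.5%), against 27.6% of all protein-coding genes, and the longer acceptor form TTTCAG stood there in 38 of 76 (50%), against 12.3% of all. Of the 15 peak genes 14 had AG before the 5′ end. The position of the summits moved with that base pair. Among ribosomal protein genes with a region, the median was 284 bp upstream in the 57 with AG and 193.5 bp upstream in the 10 without it. Among the other genes with a thresholded peak, the medians were 255 bp upstream in the 191 with AG and 183 bp upstream in the 263 without. The part of the outron in the position of the summits was not tested.

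By the annotation, 41 of the 67 summits lay between genes, 12 in coding sequence, 8 in non-coding genes, 4 in introns and 2 in 5′ untranslated sequence. The same split over all protein-coding genes is not given here. Of the 15 peaks, 13 lay between genes and that at rps-1 lay in the non-coding gene F56F3.10. The rpl-24.2 peak lay in an intron of C03D6.1, an opposite-strand gene that spans the rpl-24.2 5′ end. Genes for tRNA, snoRNA, snRNA or microRNA lay within 200 bp of 1 of the 15 peaks, that at rps-26 beside the snoRNA gene F39B2.14, against 21.5% of all protein-coding genes with a thresholded peak. Peaks were thus left at 14 ribosomal protein genes with no such RNA gene nearby.

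Many regions lay close to another gene as well. Of the 67 genes with a region, 46 (68.7%) shared it with at least 1 other protein-coding 5′ end within 1 kb, against 29.4% of all genes with a region. Of the 15 peaks 9 were shared (60%), against 49.5% of all protein-coding genes with a thresholded peak. Another 5′ end was nearer to the summit at 26 of the 67 and at 6 of the 15. The regions of 30 of the 67 genes, and 7 of the 15 peaks, lay between 2 genes that point away from each other. For a nearer 5′ end and for this arrangement, the share over all protein-coding genes is not given here. These counts are thus not shown to be particular to ribosomal protein genes.

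The 6 peaks with a nearer neighbour were those of rpl-20, rpl-22, rpl-27, rps-19, rps-20 and rps-26. The neighbours were ify-1, a securin-like gene (securin inhibits separase until anaphase), 203 bp from the rpl-22 peak against 234 bp for rpl-22, and Y17G9B.5, 198 bp from the rpl-20 peak against 264 bp. Others were ekl-4 (170 bp, against 227 bp for rps-20), hsr-9 (139 bp, against 306 bp for rps-19) and tmem-107 (64 bp, against 393 bp for rps-26). At rpl-27 the nearer ends were egl-30 (41 bp) and C53H9.4 (160 bp), against 737 bp. At 3 peaks the ribosomal protein gene was the nearer one: rpl-15, with K11H12.8 at 464 bp against 350 bp, rps-28, with Y41D4B.4 at 861 bp against 442 bp, and rps-1, with ifet-1, a translational repressor, at 545 bp against 223 bp. The other 6 peaks, those of rpl-3, rpl-35, rps-24, rpl-24.2, rpl-11.2 and rps-11, had no other protein-coding 5′ end within 1 kb.

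Giving each region to the nearest 5′ end only, a rule added after the data were seen, left 9 of 76 ribosomal protein genes with a peak (11.8%), against 1.76% of all protein-coding genes. By that rule 52 of 76 kept a region (68.4%), against 39.4% of all protein-coding genes. The nearest protein-coding gene upstream of, or overlapping, the 5′ end was on the opposite strand at 52 of the 76. Of these 52, 11 had a peak (21.2%). That gene was on the same strand at 24, of which 4 had a peak (16.7%). The 52 include rpl-24.2 and rpl-37, where that gene overlaps the 5′ end and does not simply point away. How often each arrangement occurs over all protein-coding genes is not given here. The median signals of the 2 arrangements were 76.6 and 76.1. Within the set, 8 genes used a region in common with another ribosomal protein gene: rps-30 with rpl-39 (88.4), rps-10 with rpl-24.1 (55.6), rps-14 with rpl-36 (46.5) and the rpl-41 pair, so that the 67 genes rest on 63 distinct regions. The 15 peaks were 15 distinct regions.

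The peaks were found on all chromosomes but V, where 7 of 8 genes had a region and 0 had a peak. Chromosome IV had regions at 16 of 16 genes and 5 peaks. Chromosome III had 14 of 18 with 3 peaks, chromosome II 7 of 9 with 1 peak and the X chromosome 2 of 2 with 1 peak. The remaining 5 peaks were on chromosome I, with regions at 21 of 23 genes. Shares by chromosome over all protein-coding genes are not given here, and the numbers on each chromosome are small.

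The sequence under the peaks was rich in G and C in its centre. The GC content of the 101 bases around the summit averaged 50.4% ± 8.51 over the 15 peaks and 44.1% ± 10.01 over the 48 weaker regions of ribosomal protein genes. It averaged 50.1% ± 7.56 over 335 other thresholded peaks near protein-coding genes and 42.6% ± 9.51 over the 7542 other pooled regions near them, which include those 335 (SD over regions). The 15 peaks ranged from 35.6% at rps-11 to 67.3% at rpl-27. The ribosomal protein peaks and the other peaks thus had nearly the same average, while rps-11, rps-24 and rpl-20 were far lower, at 35.6%, 36.6% and 37.6%.

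Of 7 motifs searched on both strands within those 101 bases, CGCACA stood in 4 of the 15 peaks (26.7%) and 5 of the 48 weaker regions (10.4%), against 17.6% of other peaks and 4.97% of other regions. Among the 247 other peaks without a tRNA, snoRNA, snRNA or microRNA gene within 200 bp, CGCACA stood in 22.7%. In windows of 201 bases it stood in 5 of the 15 (33.3%) and in 29.6% of those 247. ACAANG, which includes the core that SOX proteins are known to bind, stood in 4 of the 15 (26.7%) and 8 of the 48 (16.7%), against 12.8% of other peaks and 16.5% of other regions. In windows of 201 bases ACAANG stood in 4 of the 15 (26.7%) and 22 of the 48 (45.8%), against 24.2% of other peaks and 30.3% of other regions, so the share at the ribosomal protein peaks was then close to that of other peaks. In the 600 bp before the 5′ end it stood in 9 of the 15 genes (60%), against 66.9% of other protein-coding genes. GGGCGG and GAGAGA each stood in 2 of the 15, against 13.1% and 17.3% of other peaks. TTTCAG stood in 1 of the 15, against 5.97% of other peaks, and TATAAA and CTGCGTC in 0 of the 15, against 4.18% and 2.69% of other peaks. No test of these counts was made.

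The 3 words in capitals were picked by eye after the windows of the 15 peaks had been seen, together with those of the weaker ribosomal protein regions and of other regions, so their counts describe the windows that led to them and support nothing. ACCGTA stood within 100 bp of the summit at 8 of the 15 peaks (53.3%) and at 15 of the 48 weaker ribosomal protein regions (31.2%), against 5.67% of the 335 other peaks and 5.98% of the 7542 other regions. ACACTC stood at 9 of the 15 (60%) and 13 of the 48 (27.1%), against 16.1% of other peaks and 8.99% of other regions. GGCCTAA stood at 5 of the 15 (33.3%) and 6 of the 48 (12.5%), against 0.896% of other peaks and 2.24% of other regions. Matches to different words may overlap. At the 5 peaks that held GGCCTAA, among them rpl-3, rpl-15 and rps-28 shown above, it lay on the strand of the ribosomal protein gene between 66 and 74 bp past the summit, toward the gene. The 6 weaker regions that held it had no such placement: of their 7 matches 2 were on the gene's strand and 5 on the other, at offsets from -96 to 91 bp.

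ACCGTA and ACACTC were searched only within 100 bp of the summit and lay on both sides of it. Counted by gene, the median distance to the summit was 26.5 bp for the 24 matches of ACCGTA, of which 12 were upstream of it. For the 25 matches of ACACTC it was 31 bp, and 13 were upstream. The region shared by rps-10 and rpl-24.1 was counted for both genes. Its site of each word thus appears once upstream and once downstream. In rpl-11.2 the 2 words stood side by side, as GAGTGT and ACCGTA with a single base between them. Pairs of the windows shown, and that of rps-24, were searched for shared runs of 12 or more bases, and 5 were found. The other peak windows were not searched for such runs. The rpl-15 and rps-1 windows shared a run of 14 bases, GCATTGTGGAGCGT, between TACGGT and GAGTGT in both. That run contains CATTGT, a match to ACAANG on the other strand. It was in 0 of the 48 weaker ribosomal protein regions, 0 of the 335 other peaks and 0 of the 7542 other regions, but it was picked because these windows share it. The same windows shared a longer run of 15 bases, TTTTTCAGCAATTTT, which was also in 2 of the 7542 other regions, 1 of them a peak. A run of 12 bases shared by rpl-15 and rpl-20, GTCGATTTACGG, was also in 2 of the 48 weaker regions and 14 other regions. The rpl-35 window and the rps-11 window, which is AT-rich, held none of the 3 words.

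The words were also counted over all genes without regard to any region, in the 600 bp before the 5′ end, a window set after the data were seen. At the ribosomal protein genes these stretches take in many of the windows from which the words were picked. Their counts there are therefore no separate evidence and support nothing either. GGCCTAA stood there in 7 of the 15 ribosomal protein genes with a peak (46.7%) and in 17 of the 61 without one (27.9%), against 3.33% of the 19897 other protein-coding genes. ACCGTA stood in 9 of the 15 (60%) and 26 of the 61 (42.6%), against 16.2% of other genes. ACACTC stood in 9 of the 15 (60%) and 18 of the 61 (29.5%), against 18.1%. Of the 9 genes without a pooled region, 4 held ACCGTA, 2 held ACACTC and 2 held GGCCTAA, so the words were present upstream of ribosomal protein genes with and without a region. A match is a description of letters, not of a site that SOX-4 contacts.

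Other genes of the protein synthesis and turnover machinery were set beside the ribosomal protein genes. The 70 genes of the mitochondrial ribosome, which translates the few messages of the mitochondrial genome, had a peak at 2, with a median signal of 58.8 in 54 with a region. Their peaks were at mrpl-39 (164.7) and mrps-34 (130.9). Of the 52 distinct regions at those genes, 51 were not also the region of a cytosolic ribosomal protein gene. Within 100 bp of the summit, 0 of these 51 held GGCCTAA, 3 held ACCGTA and 3 held ACACTC. The words were picked with the cytosolic ribosomal protein windows in view, so these counts support nothing either. The 33 proteasome subunit genes had a peak at 3, with a median of 58.9 in 23 genes: rpn-8 (163.0), rpn-3 (146.3) and pas-5 (134.7). A snoRNA gene lay within 200 bp of the rpn-8 and pas-5 peaks.

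Of the 25 initiation factor genes 17 had a region and 2 a peak. The peak of eif-3.C, a subunit of the complex that loads the small subunit on messenger RNA, had 368.5 pooled, 209.6 in replicate 1 and 155.6 in replicate 2 (rank 87 pooled). It stood above every ribosomal protein peak but that of rpl-3. The other was eif-3.D at 149.7. Of the 6 elongation factor genes all had a region and 1 had a peak, eef-1A.1 at 155.6, with the microRNA gene mir-5549 within 200 bp. The stalk proteins rla-0, rla-1 and rla-2, the ubiquitin fusions ubl-1 and ubq-2, and rack-1 had a region at 5 of 6 genes and a peak at 0 of 6, with a median of 60.04. The 2 genes with a letter in the symbol, rpl-7A (99.5) and rpl-36.A (70.2), had regions but no peak.

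**Figure D4:**
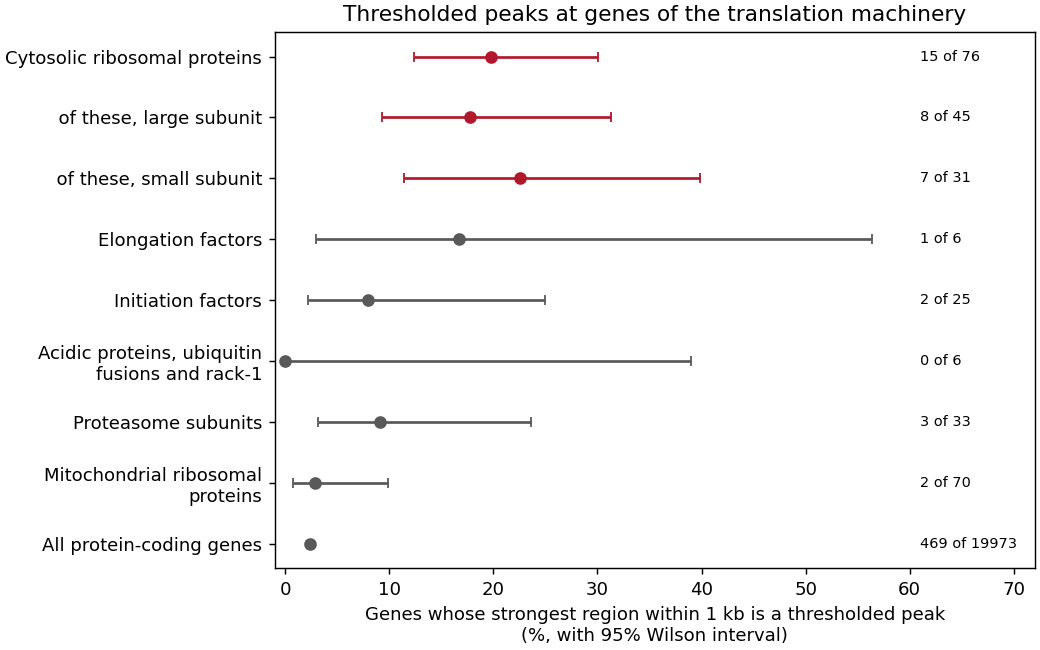
Share of genes (%) whose strongest region within 1 kb is a thresholded peak, with 95% Wilson intervals (counting error over genes only) and the counts at the right. Cytosolic ribosomal protein genes, at 19.7%, lie right of all protein-coding genes, at 2.35%, and of mitochondrial ribosomal protein genes (2.86%, 0.787 to 9.83). Their interval overlaps those of the elongation factor, initiation factor and proteasome genes. Genes are not independent replicates, so whether intervals overlap is no test of a difference between lists.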

How the data were processed

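The deposited files are narrowPeak lists of regions from anti-GFP ChIP-seq of 2 libraries, for ce10 and for ce11. According to the notes deposited beside them, regions were called on each replicate and on both pooled, and a thresholded list was derived by the irreproducible discovery rate. The sources used here do not give the aligner, peak caller, versions or threshold. Each signal value, as deposited, was taken to be the caller's measure of peak strength against a control, with no scaling between libraries stated. Read counts and depth are unknown.

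Only ce11 was used. Ensembl release 115 gene models of WBcel235, the same assembly, gave 5′ ends, and RefSeq gave the sequence, with product names matched by WormBase gene ID. The 12 mitochondrial protein-coding genes were left out. Summits (counted from 1) were assigned to every 5′ end within 1 kb, and the region with the highest signal was kept. Overlap meant 1 bp or more. Assignment was tested on simulated regions.

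The genes and gene lists were chosen with earlier results of these data known. The genes named are those with a peak, those next to the threshold, those without a region, neighbours of peaks and the peaks of the other lists; copies of a gene and the regions used by a pair of ribosomal protein genes were added after their values were seen. With 1 group there is no contrast between samples, so no test was made. Software was Python 3.11.15 with matplotlib 3.10.9, scipy 1.17.1, pandas 2.3.3 and numpy 2.4.6.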

Additional observations from a re-analysis of the deposited data

How the results depend on the processing

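No paired analysis was possible because there is 1 group. Of 59 values recomputed under other settings, 48 stayed close to those reported and 11 moved. A count was called close within a factor of 1.5, so 52 genes with a region in place of 67 was called close. The number that changed direction was 0, but only the median position has a sign that could change. With the region nearest the 5′ end in place of the strongest, the median signal was 69.8 in place of 76.6 and the median position was 227 bp upstream (-227) in place of 284 bp. A window of 500 bp gave a median position of -250 bp and 28 genes with a shared region in place of 46. The stronger part of the thresholded list, its upper 50%, held peaks of 11 genes in place of 15. Of the large subunit it held 5 in place of 8, and of the small subunit 6 in place of 7. The share over all protein-coding genes in that part is not given here. Giving regions to the nearest 5′ end only, which was added after the data were seen, left 9 peak genes in place of 15.

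With 1 replicate left out, values come from the other replicate's own list. The median signal was then 42.8 to 48.1, on a scale that cannot be compared with the pooled list, and the median position -264 to -251 bp. The median rank, as a share of the list, was 9.41% in the replicate 2 list alone and 13.5% in the replicate 1 list alone, against 13.7% in the pooled list. The cause of these shifts was not tested.

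Depth is unknown, so a gene without a region is not shown to be unbound. The lists come from 1 group without an untagged sample, and the annotated 5′ end sets every position.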
